A study of Sus scrofa with 12 samples.

Results

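The factors described here are transcription factors that mark the endothelial lineage, and the question was how their mRNA varied when porcine arterial endothelial cells (ECs) were held at different levels of wall shear stress (WSS). They were taken by name: ERG, FLI1 and ETS1 of the ETS family, GATA2 and GATA6, SOX7 and SOX18 of the SOXF group, TAL1, MEF2C and NR2F2. Of these 10 names, 8 were found among the 21153 genes of the table through the pig Ensembl identifier of each row. SOX7 and TAL1 matched no row and were not analysed here. Of the 8, 7 had a CPM (reads of the gene scaled to a common library size) of 1 or more in 3 or more of the libraries being compared and could be tested, and MEF2C did not.

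These proteins bind DNA in the promoters and enhancers of genes that ECs depend on, such as those for junction proteins, angiopoietin and VEGF receptors and nitric oxide synthase. ETS factors share a winged DNA-binding domain and are found at nearly all endothelial enhancers, often beside GATA, SOX and TAL1 sites. NR2F2, also called COUP-TFII, is known as a factor of venous and lymphatic identity, and SOXF factors act in arterial and lymphatic specification.

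ECs from the arteries of 3 slaughterhouse pigs aged 8 months were kept for 48 h under steady laminar flow, and RNA of 12 cultures was sequenced. Every pig gave 1 culture at low aneurysmal WSS (2 dyne/cm2), 1 at supra-high aneurysmal WSS (80 dyne/cm2) and 2 at physiological WSS (30 dyne/cm2). The first set at 30 dyne/cm2 (30.1) was taken as control for 2 dyne/cm2, and the second set (30.2) for 80 dyne/cm2. No label ties either set to the condition it controls, so this pairing is an assumption. Genes with an adjusted p under 0.05 by edgeR and at least 2-fold were counted with each set. At 80 dyne/cm2, 128 were higher and 118 lower against set 2, and 10 and 14 against set 1. At 2 dyne/cm2, 568 and 510 were so against set 1, and 421 and 446 against set 2. The counts printed by the study lie nearer those of the assumed pairing. Comparisons were always made within a pig. All cultures were unmodified primary cells on gelatin in medium with calf serum and heparin, so no group carried an altered gene. The source vessel is the aorta in the labels and the coronary arteries in the methods. The design text gives another flow slide and a denser seeding for 80 dyne/cm2 and its control than for 2 dyne/cm2. Neither 30.1 nor 30.2 is tied to a slide by its label. Flow was constant and not pulsatile, and there were no static cultures.

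Between 29606854 and 41058902 reads per library fell on genes (median 33871914). The most abundant gene was FN1 in all libraries at 2 and 30 dyne/cm2 and VIM in those at 80 dyne/cm2. The cells carried the EC markers PECAM1, CDH5, TEK, TIE1 and KDR in every library, with a summed level of 3885 to 4866 CPM at 2 dyne/cm2, 5376 to 6759 CPM in both sets at 30 dyne/cm2 and 7039 to 7300 CPM at 80 dyne/cm2. VWF matched no row. The leukocyte markers PTPRC and CD3E had at most 3 counts in any library, and the muscle marker DES had 0. Other markers of these lists were present: CD68 had 188 to 807 counts per library, and 10 smooth muscle and pericyte markers summed to 56.2 to 93.2 CPM. Most of that sum was SMTN, at 43.4 to 83.1 CPM. PDGFRB, CSPG4 and LMOD1 had at most 7.11, 5.86 and 5.18 CPM. MYH11, CNN1, ACTA2, TAGLN, DES and RGS5 had at most 0.80 CPM in any library. The 6 fibroblast markers summed to 46.3 to 1306 CPM over all libraries, most of it COL3A1 and COL1A2.

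Levels of the members are given as CPM scaled by the TMM method, in the order of pigs 1, 2 and 3. The files give no transcript lengths, so levels were compared within a gene and not between genes. In RNA of whole cultures, fewer cells that express a gene and less RNA of that gene per cell cannot be told apart.

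ERG (ENSSSCG00000022318, chr13:201999237-202302572 on Sscrofa11.1, RefSeq), the ETS factor most closely tied to EC identity, had 11114 to 16538 reads per library and varied least of the 7 tested members, with the highest library 1.37 times the lowest. Its level at 2 dyne/cm2 was 367, 361 and 374 CPM (367 ± 6.27, SD, n = 3), against 406, 422 and 456 CPM in set 1 at 30 dyne/cm2 (428 ± 25.5). All cultures at 2 dyne/cm2 lay below all cultures of set 1. Groups that did not overlap, in either direction, were found for 37.9% of all genes tested in that comparison. The log2 fold change was -0.22 (SE 0.09, 95% interval -0.45 to 0.01), which missed the threshold (edgeR quasi-likelihood test, Benjamini-Hochberg adjusted p = 0.134). Under supra-high WSS ERG stood at 332, 423 and 403 CPM (386 ± 47.6), and in set 2 at 30 dyne/cm2 at 378, 400 and 406 CPM (395 ± 14.5). These groups overlapped, and the log2 difference of -0.03 (95% interval -0.26 to 0.20) was smaller than the spread between pigs.

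**Figure D1:**
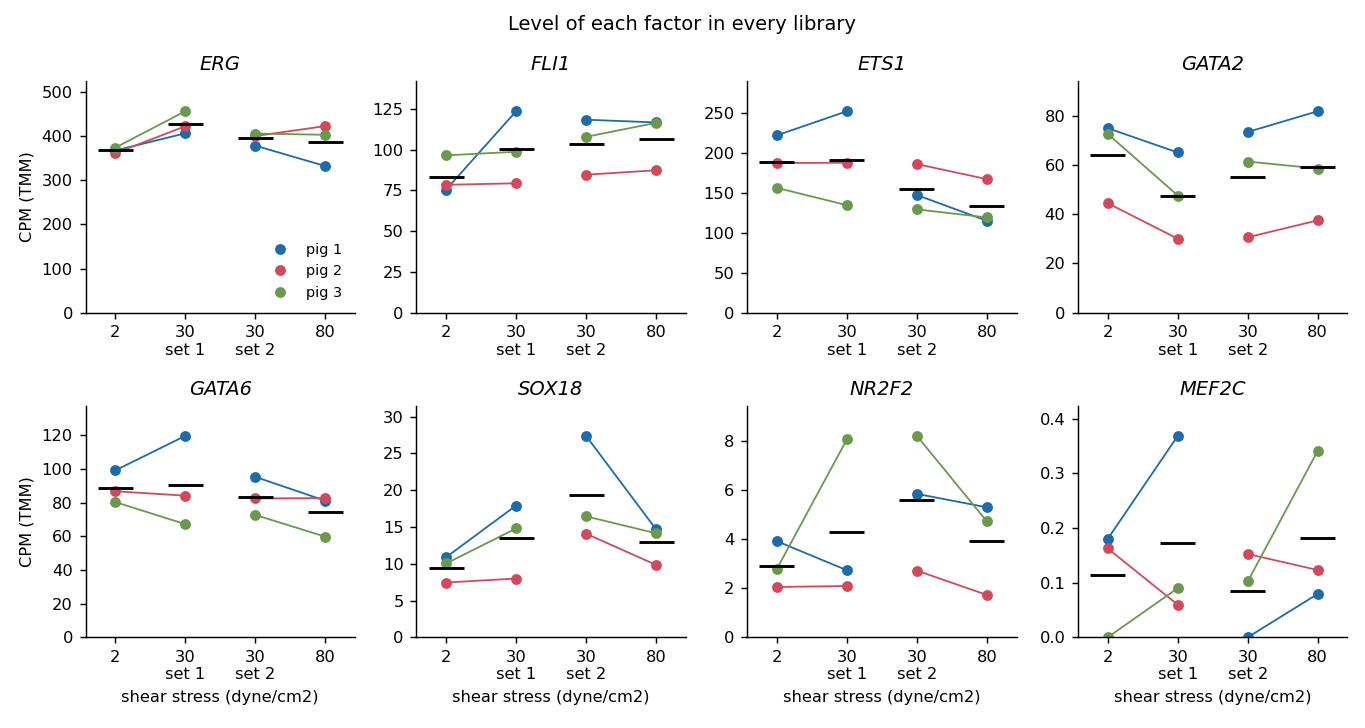
Level of each of the 8 factors found, in TMM-scaled CPM (vertical axis, from 0, with its own range per panel), at 2, 30 (set 1 and set 2) and 80 dyne/cm2. Points joined by a line are the cultures of 1 pig, and bars give the mean of 3 pigs; ERG stayed between 332 and 456 CPM, whereas GATA2 was lowest in pig 2 in every group and MEF2C never passed 0.369 CPM.

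FLI1 and ETS1 lie close together on chromosome 9, ETS1 (ENSSSCG00000015235) at chr9:55377264-55512180 and FLI1 (ENSSSCG00000015237) at chr9:55612905-55749784, with 100724 bases between them. FLI1, a close relative of ERG with overlapping target genes, stood at 75.5, 78.5 and 96.5 CPM at 2 dyne/cm2 (83.5 ± 11.4) and at 124, 79.4 and 98.7 CPM in set 1 (101 ± 22.2). The direction was lower in 3 of 3 pigs, but the size came from pig 1, whose own log2 change was -0.71 against -0.02 and -0.03 in pigs 2 and 3. The fit gave -0.25 (SE 0.16, 95% interval -0.67 to 0.17, adjusted p = 0.293 by edgeR). FLI1 at 80 dyne/cm2 was 117, 87.4 and 116 CPM (107 ± 16.9), and in set 2 it was 118, 84.6 and 108 CPM (104 ± 17.3). These values lay on top of each other, with a log2 difference of 0.06 (SE 0.08).

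ETS1, which acts in EC migration and in inflammatory responses, had 222, 188 and 156 CPM at 2 dyne/cm2 (189 ± 33.0) and 253, 188 and 135 CPM in set 1 (192 ± 59.0). Pig 1 was lower and pig 3 higher at 2 dyne/cm2, and the mean difference was 0.01 on the log2 scale (95% interval -0.26 to 0.28). Under 80 dyne/cm2 the levels of ETS1 were 115, 167 and 119 CPM (134 ± 29.0), and in set 2 they were 148, 186 and 130 CPM (154 ± 29.0). ETS1 was thus lower at 80 dyne/cm2 in 3 of 3 pigs, with a log2 fold change of -0.20 (SE 0.09) that did not pass the test (adjusted p = 0.208 by edgeR). Although close in the genome, FLI1 and ETS1 did not run in parallel: over the 12 libraries, with each pig's mean removed, their log2 CPM had a Pearson r of -0.40. This is a description, since the libraries share pigs.

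GATA2 (ENSSSCG00000011618, chr13:71981139-71997626) was the only member called in either comparison. It is the GATA factor that acts on EC genes such as EDN1, and blood stem cells use it too. At 2 dyne/cm2 it had 74.9, 44.4 and 72.6 CPM (64.0 ± 17.0), and in set 1 it had 65.03, 30.0 and 47.6 CPM (47.5 ± 17.5). The groups overlapped, with pig 2 low in both, yet each pig was higher at 2 dyne/cm2, by 0.20, 0.57 and 0.61 on the log2 scale. GATA2 rose by 37.8%, as 13.4% of all genes tested rose (log2 fold change 0.46, SE 0.11, 95% interval 0.18 to 0.75, adjusted p = 0.0398 by edgeR with the pig as a block). The adjusted p lay close to the threshold: it was 0.0501 with no filter on low counts, 0.409 without the pig as a block, 0.159 against set 2, and 0.0505, 0.114 and 0.124 with pig 1, 2 or 3 left out. The rise was under 2-fold, the size that the study's own call also requires.

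Supra-high WSS left GATA2 at 81.8, 37.5 and 58.5 CPM (59.3 ± 22.2), against 73.4, 30.6 and 61.4 CPM in set 2 (55.1 ± 22.1). It was higher in 2 of 3 pigs, and the log2 difference of 0.14 (SE 0.10, adjusted p = 0.403 by edgeR) did not pass. Of 6 fibroblast markers, 5 were tested at 2 dyne/cm2. There 3 rose (COL1A2, COL3A1 and PDGFRA), as 13.4% of all genes tested rose, and 1 of the 5 had a negative log2 fold change. The 6 summed to 366 to 1306 CPM at 2 dyne/cm2 and to 163 to 302 CPM in set 1. Most of these sums was COL3A1 and COL1A2. DCN, PDGFRA, LUM and COL1A1 had at most 4.55, 4.89, 16.1 and 49.3 CPM in any of the 12 libraries. At 80 dyne/cm2, where GATA2 had 0.14, the 4 tested all had negative values (median -1.40). Of these 1 was called, where 8.4% of all genes were called. The sum of the 6 at 80 dyne/cm2 was 46.3 to 173 CPM, against 128 to 717 CPM in set 2. COL3A1 kept its call in 11 of 11 alternatives and PDGFRA in 7, losing it without the block, against set 2 and without pig 1 or pig 3 (adjusted p = 0.0949, 0.116, 0.114 and 0.0827 by edgeR). COL1A2, named after its values were seen, also kept its call in 7 of 11, losing it without the block, with all 12 libraries fitted and without pig 2 (adjusted p = 0.640, 0.0978 and 0.0521 by edgeR). Against set 2, where it averaged 110 CPM beside 102 CPM at 2 dyne/cm2, its log2 fold change was -0.11 (adjusted p = 0.803 by edgeR). None of the 6 was at 0 throughout, and their part in the GATA2 result was not tested.

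GATA6 (ENSSSCG00000003702, chr6:107282709-107314725), a GATA factor found in many mesodermal and endodermal tissues besides ECs, had 99.1, 86.7 and 80.3 CPM at 2 dyne/cm2 (88.7 ± 9.55) and 120, 84.1 and 67.2 CPM in set 1 (90.3 ± 26.8). Pig 1 was lower and pigs 2 and 3 were higher, and the mean difference was 0.01 (95% interval -0.30 to 0.32, log2). GATA6 at 80 dyne/cm2 was 81.1, 82.7 and 59.8 CPM (74.5 ± 12.8), and in set 2 it was 95.3, 82.5 and 72.7 CPM (83.5 ± 11.3). Pigs 1 and 3 were lower and pig 2 level, for a log2 difference of -0.16 (SE 0.09, adjusted p = 0.309 by edgeR).

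SOX18 (ENSSSCG00000037865, chr17:62869868-62871758), the SOXF factor whose loss disturbs vascular and lymphatic development, stood lowest at 2 dyne/cm2 in each pig, at 10.9, 7.44 and 10.0 CPM (9.45 ± 1.79). In set 1 it was at 17.9, 7.99 and 14.8 CPM (13.6 ± 5.07). All 3 pigs were lower at 2 dyne/cm2, pig 2 by little, and the log2 fold change of -0.46 (SE 0.16, 95% interval -0.87 to -0.06) did not pass after adjustment (adjusted p = 0.0895 by edgeR). Supra-high WSS gave SOX18 levels of 14.7, 9.84 and 14.1 CPM (12.9 ± 2.65), and set 2 levels of 27.4, 14.1 and 16.4 CPM (19.3 ± 7.09). Here too it was lower in 3 of 3 pigs, with overlapping groups and a log2 fold change of -0.54 (SE 0.14, 95% interval -0.87 to -0.20, adjusted p = 0.0643 by edgeR). Its lower level at 80 dyne/cm2 passed in 3 alternatives: library totals without TMM (adjusted p = 0.0416), no filter (0.0288) and DESeq2 (0.0404).

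For SOX18 the choice of control mattered most, and NR2F2 moved by nearly as much. Between the sets at 30 dyne/cm2, both under the same nominal flow, it was higher in set 2 in 3 of 3 pigs, by 0.53 on the log2 scale (SE 0.14, 95% interval 0.18 to 0.87, adjusted p = 0.162 by edgeR). Set against set 2, the level at 2 dyne/cm2 was lower by a called amount (log2 fold change -0.996, adjusted p = 0.0140, where 24.6% of all genes were called), and all 3 cultures at 2 dyne/cm2 lay below all 3 of set 2. Set against set 1, the level at 80 dyne/cm2 did not differ from control beyond its error (log2 fold change -0.01, 95% interval -0.39 to 0.36, adjusted p = 0.981, where 0.234% of all genes were called). The design text has the control sets on different slides, so slide and set cannot be told apart.

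NR2F2 (ENSSSCG00000002254, chr7:83076119-83090250) was sparse, with 56 to 321 reads per library. It had 3.91, 2.05 and 2.78 CPM at 2 dyne/cm2 (2.91 ± 0.938) and 2.73, 2.09 and 8.05 CPM in set 1 (4.29 ± 3.28). The pigs did not move together: pig 1 was higher by 0.52, pig 2 was level and pig 3 was lower by 1.53 (log2 changes of 0.52, -0.03 and -1.53), and the 95% interval of the fit ran from -1.47 to 0.77. Under 80 dyne/cm2 the levels of NR2F2 were 5.29, 1.72 and 4.71 CPM (3.91 ± 1.91), against 5.83, 2.71 and 8.19 CPM in set 2 (5.58 ± 2.75). All 3 pigs were lower at 80 dyne/cm2, with a log2 fold change of -0.51 (SE 0.18, 95% interval -0.93 to -0.09, adjusted p = 0.126 by edgeR). Without pig 1 it was -0.73 and called (adjusted p = 0.00918 by edgeR), the only call in 11 alternatives. In that fit 1007 of 10958 genes were called higher and 1035 lower. Set against set 1, the log2 fold change at 80 dyne/cm2 was -0.02 (adjusted p = 0.986 by edgeR). Set against set 2, that at 2 dyne/cm2 was -0.86 (adjusted p = 0.0763 by edgeR). Between the sets at 30 dyne/cm2 NR2F2 was higher in set 2 by 0.49 (SE 0.23, 95% interval -0.08 to 1.06).

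MEF2C (ENSSSCG00000014149, chr2:96122407-96296927), a MADS-box factor that in ECs acts with KLF2 and KLF4 downstream of the ERK5 kinase, was close to undetected. It had 7, 5 and 0 reads at 2 dyne/cm2, 15, 2 and 3 reads in set 1, 0, 5 and 4 reads in set 2, and 3, 4 and 11 reads at 80 dyne/cm2. No group stood apart from the others, and no fold was computed at this depth. Its relatives MEF2A and MEF2D, named after their values were seen, were present at 103 ± 16.1 and 119 ± 21.5 CPM (SD, n = 3) at 2 dyne/cm2 and at 162 ± 23.1 and 169 ± 26.0 CPM in set 1. Both fell at 2 dyne/cm2, MEF2A by 0.64 on the log2 scale (adjusted p = 0.00924) and MEF2D by 0.50 (adjusted p = 0.0231, both by edgeR). MEF2A kept its call in 10 of 11 alternatives, and MEF2D in 8, losing it without the block and with pig 1 or pig 2 left out (adjusted p = 0.116, 0.126 and 0.0621 by edgeR). Neither passed at 80 dyne/cm2 (log2 fold changes of -0.01 and 0.23).

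**Figure D2:**
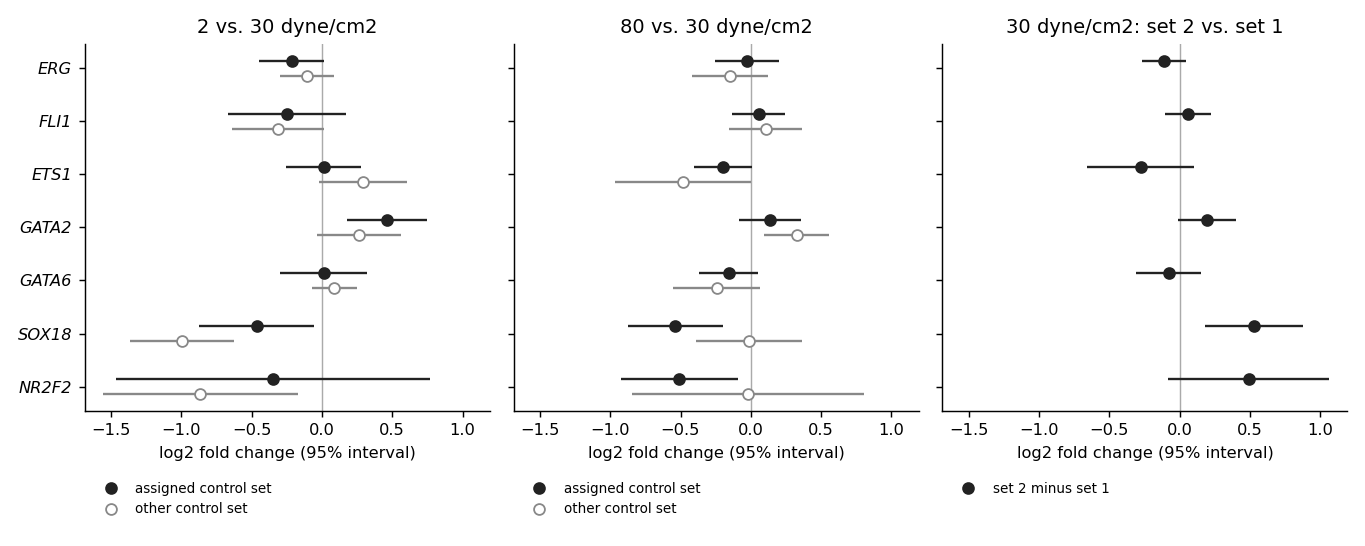
Log2 fold change of each tested factor (horizontal axis) with its 95% interval, for 2 dyne/cm2, 80 dyne/cm2 and set 2 against set 1 at 30 dyne/cm2, from edgeR with the pig as a block. Dark points use the set paired with that condition and grey points the other set. With the control set exchanged, SOX18 moved from -0.46 to -0.996 at 2 dyne/cm2 and from -0.54 to -0.01 at 80 dyne/cm2. NR2F2 moved from -0.35 to -0.86 and from -0.51 to -0.02.

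Over the 7 tested members, 1 was called at 2 dyne/cm2, where 25.8% of 11226 genes tested were called, and 0 at 80 dyne/cm2, where 8.4% of 11187 genes were called. At an unadjusted p under 0.05 there were 2 members in each comparison, against 42.5% and 26.1% of all genes. No member reached 2-fold at either level of WSS, whereas 9.6% of all genes passed with at least that change under low WSS and 2.2% under supra-high WSS. Without the pig as a block, edgeR called 0 of 11187 genes at 80 dyne/cm2 (929 had an unadjusted p under 0.05, and DESeq2 with the block called 625 higher and 525 lower), so every call at 80 dyne/cm2 given here rests on the block. Without regard to sign, the members' median log2 fold change was 0.25 for low and 0.16 for supra-high WSS, beside 0.27 and 0.16 over all genes tested. The signed medians were -0.22 and -0.16, beside 0.00253 and -0.00575. Of the 7, 4 moved the same way in all 3 pigs at 2 dyne/cm2 (ERG, FLI1 and SOX18 lower, GATA2 higher), as did 66% of all genes, and 3 at 80 dyne/cm2 (ETS1, SOX18 and NR2F2 lower), as did 49.6% of all genes.

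The difference between the responses to low and supra-high WSS was tested over all 12 libraries, and no control library is shared between them. No member passed, whereas 37.1% of 11568 genes did. At an unadjusted p under 0.05, which 47.1% of genes had, there was 1 member, GATA2, whose response at 2 dyne/cm2 exceeded that at 80 dyne/cm2 by 0.34 on the log2 scale (SE 0.15, adjusted p = 0.103 by edgeR). With the control sets exchanged this difference was -0.05, and that of SOX18, 0.08 with the paired sets, became -0.97 and was called (adjusted p = 0.0124 by edgeR), as were 22.2% of genes. That of ETS1 went from 0.19 to 0.78 and narrowly missed the threshold (adjusted p = 0.0509 by edgeR). Between the sets at 30 dyne/cm2 no member was called by edgeR, and 1 (SOX18) had an unadjusted p under 0.05, where 0.0179% of 11163 genes were called and 19.2% had an unadjusted p under 0.05. DESeq2 called 223 genes higher and 253 lower between the sets, and edgeR with no filter 73 and 88, again with 0 members in either. The median size of the log2 difference between the sets was 0.20 for the members and 0.12 for all genes. All 3 pigs moved in 1 direction for 5 of the 7 members, as for 44.1% of all genes, and 1 member (ERG, lower in set 2) had sets that did not overlap, as had 10.3% of genes.

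For 4 of the 7 members (FLI1, GATA2, GATA6 and NR2F2) more variance lay between pigs than between the groups. GATA2 was the extreme: of the variance of its log2 CPM over 12 libraries, 83.9% lay between pigs and 4.07% was left after pigs and the 4 groups. For GATA6 and NR2F2, 65.2% and 59.5% lay between pigs. ERG and SOX18 had the largest shares between groups, 46.3% and 47.7%, and ETS1 was spread evenly, with 33.2% between pigs and 38.0% between groups. The medians over 11568 genes were 31.0% between pigs and 41.9% between groups. These shares are a description, since 3 pigs and 4 groups give few degrees of freedom.

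**Figure D3:**
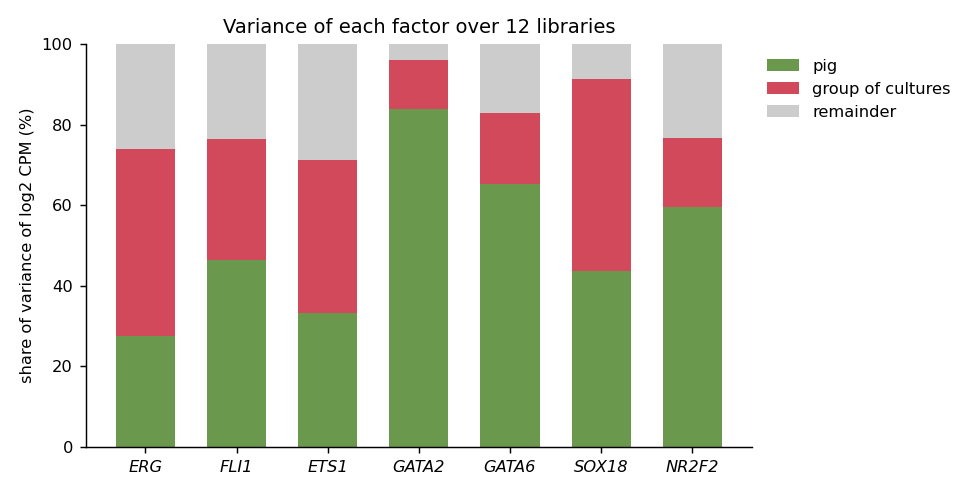
Share of the variance of log2 CPM over 12 libraries (vertical axis, percent) that lies between the 3 pigs, between the 4 groups and in the rest, for each tested factor. The pig share was highest for GATA2 (83.9%) and lowest for ERG (27.6%).

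With each pig's mean removed, the members followed different courses. Among 21 pairs, Pearson r over the 12 libraries ran from -0.84 for ERG with GATA2 to 0.85 for ETS1 with GATA6. Among 10132 genes with a symbol, the one most like each member was RSC1A1 for ERG (r = 0.95), CALML4 for FLI1 (0.95), RASA2 for ETS1 (0.95), NADSYN1 for GATA2 (0.96), MANSC1 for GATA6 (0.93), CHMP4C for SOX18 (0.97) and AIPL1 for NR2F2 (0.96). Each is the highest of many values over libraries that share pigs and depth, and nothing on function was read from it.

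The members work beside other transcription factors and cofactors of the endothelial and haemogenic lineage. Of 32 written down, 27 were tested: 3 rose and 8 fell at 2 dyne/cm2 (40.7% called, beside 25.8% of all genes, with a median log2 fold change of -0.14). This list and those below were written with earlier results of these data known, so their shares called are a description. BCL6B, a zinc finger repressor, went from 565 ± 59.4 CPM in set 1 to 118 ± 39.2 CPM at 2 dyne/cm2 (SD, n = 3), lower in 3 of 3 pigs, a log2 fold change of -2.31 (SE 0.17, adjusted p = 0.00409 by edgeR). ETS2, of the same family as ETS1, went from 142 ± 38.3 to 38.0 ± 12.4 CPM (log2 fold change -1.91, SE 0.09, adjusted p = 0.00290 by edgeR). Both stood below set 1 without overlap and were called in 11 of 11 alternatives.

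LMO2, the adaptor that joins GATA factors to TAL1, was named after its values were seen. It stood at 54.7 ± 8.29 CPM at 2 dyne/cm2, 147 ± 58.2 CPM in set 1, 103 ± 33.9 CPM in set 2 and 183 ± 59.7 CPM at 80 dyne/cm2 (SD, n = 3). It fell at 2 dyne/cm2 (log2 fold change -1.36, adjusted p = 0.0109) and rose at 80 dyne/cm2 (0.84, adjusted p = 0.00802), and the difference between the responses passed as well (-2.20, adjusted p = 0.000990, all by edgeR). Its call at 2 dyne/cm2 held in 11 of 11 alternatives. That at 80 dyne/cm2 held in 7, and was lost without the block, with all 12 libraries fitted, against set 1 and without pig 3 (adjusted p = 0.0672 by edgeR). At 80 dyne/cm2 the list gave 1 riser, LMO2, and 2 that fell (median -0.03): GATA3 by 0.93 on the log2 scale (SE 0.11, adjusted p = 0.00578) and ZFPM2, a GATA cofactor also called FOG2, by 0.85 (SE 0.12, adjusted p = 0.00942, both by edgeR). Without pig 3 their adjusted p was 0.0567 and 0.0956, and against set 1 the change of ZFPM2 was -0.38 and not called.

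**Figure D4:**
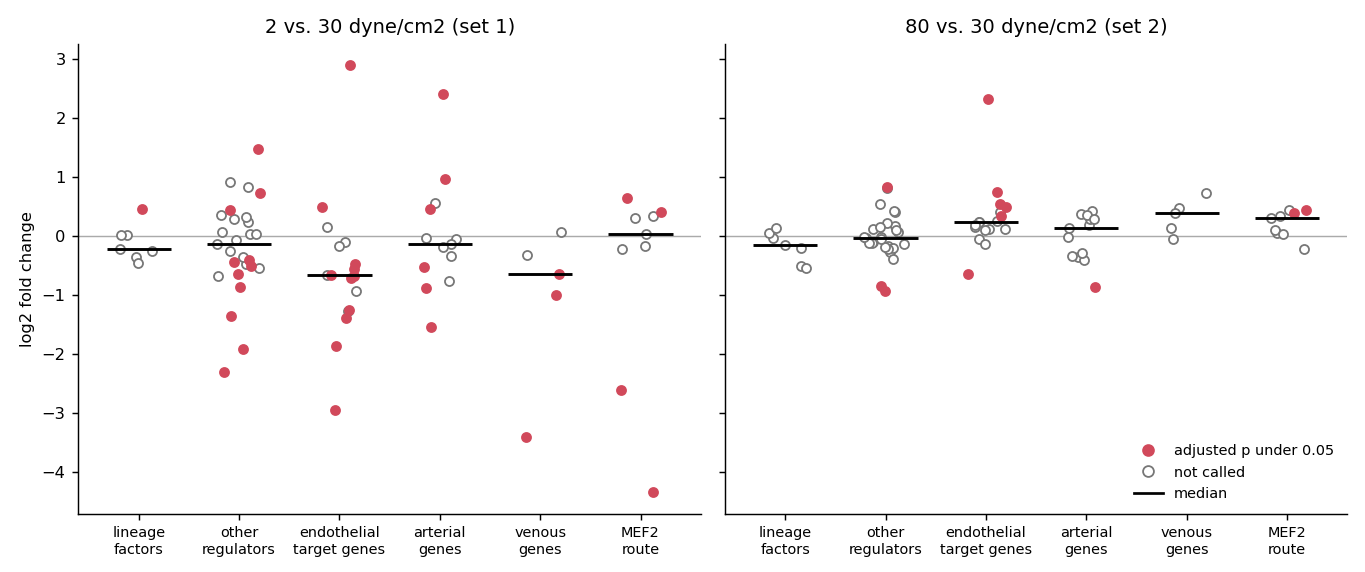
Log2 fold change (vertical axis) of every tested gene of each list at 2 dyne/cm2 and at 80 dyne/cm2, each against its own set at 30 dyne/cm2. Filled points passed an adjusted p under 0.05, open points did not, and bars give the list median, which for the target genes was -0.66 under low and 0.23 under supra-high WSS.

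Endothelial genes known from textbooks as targets of ETS, GATA, SOXF or TAL1 factors were counted next. Of 22 written down, 17 were tested, and 9 fell and 2 rose at 2 dyne/cm2 (64.7% called, beside 25.8% of all genes), with a list median of -0.66. TEK, the angiopoietin receptor, went from 499 ± 46.2 CPM in set 1 to 65.9 ± 19.2 CPM (log2 fold change -2.95, SE 0.24, adjusted p = 0.00479 by edgeR). EDN1, which encodes the vasoconstrictor endothelin-1, went the other way, from 113 ± 80.0 to 714 ± 85.8 CPM (log2 fold change 2.90, SE 0.49, adjusted p = 0.0182 by edgeR). Both were called in 11 of 11 alternatives.

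At 80 dyne/cm2, 5 of the 17 targets rose and 1 fell (35.3% called, beside 8.4% of all genes, median 0.23). EMCN, the EC sialomucin endomucin, rose by 2.33 on the log2 scale (SE 0.35, adjusted p = 0.0112), with 37.2 ± 36.1 CPM in set 2 and 155 ± 81.3 CPM at 80 dyne/cm2. NOS3, the endothelial nitric oxide synthase, rose by 0.74 (SE 0.15, adjusted p = 0.0260, both by edgeR), with 896 ± 213 and 1479 ± 307 CPM. NOS3 lost its call without pig 2 or pig 3 (adjusted p = 0.0722 and 0.202), with all 12 libraries fitted and against set 1, where its log2 change was 0.33. EMCN lost it against set 1 (1.55, adjusted p = 0.330 by edgeR).

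The markers that define the cells are part of that list. At 2 dyne/cm2 PECAM1, the junction protein CD31, fell by 0.71 (adjusted p = 0.0346) and TEK fell, whereas CDH5, TIE1 and KDR had log2 fold changes of -0.11, -0.18 and -1.27 that did not pass (adjusted p = 0.521, 0.255 and 0.0609 by edgeR). PECAM1 missed the threshold without pig 1 or pig 2 (adjusted p = 0.138 and 0.0741), whereas KDR passed it in 5 of 11 alternatives: DESeq2 (0.000675), all 12 libraries fitted (0.00544), against set 2 (0.0280) and without pig 1 or pig 3 (0.0389 and 0.0189, by edgeR). At 80 dyne/cm2 KDR, the VEGF receptor, rose by 0.49 (adjusted p = 0.0231, and 0.0585 and 0.119 without pig 2 or pig 3, by edgeR), and PECAM1, CDH5, TEK and TIE1 had values of 0.40, 0.23, 0.23 and 0.19 that did not pass. PECAM1 passed there in 2 of 11 alternatives, with DESeq2 (adjusted p = 0.00360) and without pig 1 (0.0154 by edgeR). KDR also lost its call without the block, with all 12 libraries fitted and against set 1, which left 6 of 11.

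Genes of arterial and venous identity gave mixed counts. The arterial list, which includes GATA2, had 13 of 16 genes tested, of which 3 rose and 3 fell at 2 dyne/cm2 (46.2% called, beside 25.8% of all genes) and 1 fell at 80 dyne/cm2 (7.69%, near the 8.4% of all genes). GJA4, the gap junction protein connexin 37, rose at 2 dyne/cm2 from 14.6 ± 2.48 to 85.7 ± 47.0 CPM (log2 fold change 2.41, adjusted p = 0.0147), but set 2 stood at 94.0 ± 63.1 CPM and against it the change was 0.02. Without pig 2 its adjusted p was 0.0517. DLL4, the arterial Notch ligand, fell by 1.55 (adjusted p = 0.00905), and against set 2 its change was -0.60 and not called. HEY1, a Notch target, fell by 0.87 at 80 dyne/cm2 (adjusted p = 0.0319, and 0.0530 and 0.106 without pig 2 or pig 3, all by edgeR). It kept that call in 6 of 11 alternatives, the other losses being without the block, with all 12 libraries fitted and against set 1.

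Of 8 venous genes, 5 were tested, and 3 fell at 2 dyne/cm2, where 25.8% of all genes were called, while 0 were called at 80 dyne/cm2, where 8.4% of all genes were called. SELP, which encodes P-selectin, went from 885 ± 110 CPM to 101 ± 77.9 CPM (log2 fold change -3.41, SE 0.53, adjusted p = 0.0152 by edgeR), and NRP2, a semaphorin and VEGF co-receptor, fell by 1.00 (SE 0.18, adjusted p = 0.0198 by edgeR). Without pig 2 their adjusted p was 0.0531 and 0.0658. NR2F2 itself, the venous factor among the members, was not called in either comparison.

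Of 10 regulators and flow targets of MEF2 factors, 9 were tested, with 2 higher and 2 lower at 2 dyne/cm2 (44.4% called, beside 25.8% of all genes) and 2 higher at 80 dyne/cm2 (22.2%, beside 8.4%). KLF2, a zinc finger factor known to be induced by laminar flow, went from 144 ± 31.0 CPM to 7.84 ± 4.70 CPM at 2 dyne/cm2 (log2 fold change -4.35, SE 0.53, adjusted p = 0.00906). KLF4, its close relative, fell by 2.62 (SE 0.33, adjusted p = 0.00924, both by edgeR). Both were called in 11 of 11 alternatives. At 80 dyne/cm2 KLF2 rose by 0.44 (adjusted p = 0.0428) and MAPK7, which encodes ERK5, by 0.40 (adjusted p = 0.0297, both by edgeR), and both were lost without pig 2 (0.157 and 0.114) or pig 3 (0.203 and 0.142). Each was called in 6 of 11 alternatives, the other losses being without the block, with all 12 libraries fitted (0.545 and 0.155) and against set 1 (0.161 and 0.755).

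Markers of other cell types were counted last. Of 10 smooth muscle and pericyte markers 4 were tested. Of these 1 was called higher and 1 lower at 2 dyne/cm2, where 25.8% of all genes tested were called. The 10 summed to 56.2 to 93.2 CPM over all libraries, most of it SMTN. PDGFRB rose at 2 dyne/cm2 (log2 fold change 2.41, adjusted p = 0.00758 by edgeR), from 0.798 ± 0.528 to 4.36 ± 3.08 CPM. It had few reads, 50, 7 and 32 in set 1 and 192, 32 and 212 at 2 dyne/cm2. The call of PDGFRB held in 8 of the 9 alternatives that tested it. CSPG4 had 0 or 1 reads at 2 dyne/cm2, 43 to 189 in set 1, 7 to 67 in set 2 and 78 to 189 at 80 dyne/cm2. Of the fibroblast markers, COL3A1 rose at 2 dyne/cm2 (1.97, adjusted p = 0.00905) and fell at 80 dyne/cm2 (-1.90, adjusted p = 0.0203, and 0.0569 without pig 2, by edgeR). Of 6 leukocyte markers, 2 were tested and CD68 fell at 2 dyne/cm2 (-1.17, adjusted p = 0.00961 by edgeR), where 25.8% of all genes were called. Among 4 lymphatic markers, summed to 1.23 to 4.16 CPM, FLT4 was the only one tested, and it rose at 2 dyne/cm2 (1.42, adjusted p = 0.0314 by edgeR). Of the erythroid and megakaryocytic markers GP9 was the only one tested, and it rose at 2 dyne/cm2 (1.82, adjusted p = 0.00758 by edgeR). GP9 had 89 to 541 reads per library, while KLF1 and HBB had 0 reads in every library. Of the cardiac markers ACTN2 was the only one tested and was not called. It was present in every library, with 586 to 979 reads (17.8 to 30.9 CPM), whereas MYL2 had 0 reads. The part of these markers in the members' results was not tested.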

How the data were processed

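RNA of 12 cultures was sequenced as single-end reads. Per the labels and the methods, the authors used STAR 2.4 to place reads on Sscrofa11.1, kept those with a single location and deposited raw counts per gene made with featureCounts 1.4.6 over merged exons, without normalization. Base calls came from CASAVA 1.8.2, by the submitters' processing notes. Rows were named through the pig Ensembl identifiers (14572 of 21153 genes have a symbol), and 3718 genes had 0 counts throughout. Total counts, 29606854 to 41058902 per library, set the counting error, which is at most 0.949% of the count for ERG and 13.4% for NR2F2.

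Counts were tested in R 4.3.3 with edgeR 4.0.16 (TMM, quasi-likelihood test, Benjamini-Hochberg over all genes tested) on the 6 libraries of each comparison, with the pig as a block and genes of at least 1 CPM in at least 3 libraries. A call is an adjusted p under 0.05, and the study's adds 2-fold. The study filtered on RPKM, which needs gene lengths. A standard error is the log2 fold change over the square root of F. Replicate numbers were taken as pigs from the methods, which compare cultures of 1 donor and passage, and from the donor letter shared by source names. With each gene's group mean removed, 18 same-number pairs of libraries had correlations of 0.63 to 0.87 over 11568 genes. The 36 other pairs had -0.55 to -0.18. Removing a mean over 3 libraries itself pushes these other pairs below 0 where same-number pairs are above it. The values show that libraries of 1 number are alike, but cannot tell a shared pig from a shared experiment or passage. With the pig as a block, p-values rest on how much the within-pig change varied over these 3 pigs. Each pig gave 1 culture per group, so a pig's own response and noise between cultures cannot be told apart. CPM per library are scaled over 12 libraries, and log2 CPM used a prior of 0.5 CPM.

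Genes named are the members, the defining EC markers, in each other list and comparison the 2 called genes with the largest change and at least 50 counts on average, and the gene most like each member; LMO2, MEF2A, MEF2D, FLT4, ACTN2 and COL1A2 were added after their values were seen. Cell type markers given by level only were also named after their values were seen. The members and the gene lists were chosen with earlier results of these data known. Alternatives were relative log expression, library totals, no filter, a minimum of 10 counts per library, DESeq2 1.42.0, no block, all 12 libraries, the other control set, each pig left out (all its libraries) and the 2-fold call. The procedure was tested on simulated data. These were drawn with the same spread for every gene and the same change in every pig. The simulation therefore cannot vouch for calls on genes whose response differed between pigs.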

Additional observations from a re-analysis of the deposited data

How the results depend on the processing

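Of 294 recomputed member values, 260 kept their direction and side of the threshold, 6 lost a call, 6 gained one and 22 changed sign; of 453 values of other genes the numbers were 376, 62, 11 and 4. The cause was not tested. The 1 member higher at 2 dyne/cm2 (GATA2) became 0 without the filter, without the replicate block, against the other set, with any pig left out (0 to 0) and at 2-fold. The 0 members lower there became 1 with all 12 libraries (SOX18, adjusted p = 0.0371 by edgeR) and with the other set (SOX18). The 0 members lower at 80 dyne/cm2 became 1 (SOX18) without TMM, without the filter and with DESeq2, and 0 to 1 with a pig left out, NR2F2 passing without pig 1. The 0 members lower in the difference between responses became 1 (SOX18) with the other set.

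Over the lists other than members, 15 genes higher at 2 dyne/cm2 became 6 without the replicate block, 8 at 2-fold and 7 to 10 with a pig left out, and 27 lower became 15 and 14, and 18 to 25. At 80 dyne/cm2, 9 higher became 14 with DESeq2, 0 without the replicate block, 2 with all 12 libraries, 0 against the other set, 2 at 2-fold and 1 to 26 with a pig left out. The 5 lower became 8 without the filter, 0 without the replicate block, 3 with all 12 libraries, 2 against the other set, 1 at 2-fold and 2 to 7 with a pig left out.

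Signs changed as follows. At 2 dyne/cm2, ETS1 was -0.0027 without TMM, -0.0026 without the filter, -0.018 without the replicate block and -0.0046 with all 12 libraries, and GATA6 was -0.0030, -0.0029 and -0.022 in the first 3. With a pig left out they ran from -0.083 to 0.11 and from -0.10 to 0.15, and NR2F2 from -0.82 to 0.28. CDH5 was 0.054 and COL1A2 -0.11 against the other set. At 80 dyne/cm2, MEF2A was 0.0070 without the replicate block and -0.11 to 0.094 with a pig left out, and ERG was -0.098 to 0.045. In the difference between responses, the other set gave 0.052 for ERG, -0.048 for GATA2, -0.74 for NR2F2 and -0.97 for SOX18, and NR2F2 was -0.040 without the replicate block. There a pig left out gave -0.12 to 0.59 for NR2F2, -0.073 to 0.28 for SOX18 and -0.018 to 0.28 for GATA6. Between the sets, GATA6 ran from -0.18 to 0.045. Precision is limited by 3 pigs and, for MEF2C, by depth.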
